A study of Rattus norvegicus with 9 samples.

Results

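The 10 genes described here form the core of the circadian clock, and all 10 had a row in the table of 18420 genes measured in the kidney cortex. They are the activators Arntl, Clock and Npas2, the repressors Per1, Per2, Per3, Cry1 and Cry2, and the nuclear receptors Nr1d1 and Nr1d2. They were picked by name, with their values in all 9 libraries already known, so those values are given as a description and carry no test. All 9 libraries came from rats of the ZDF fa/fa strain, which lacks a working leptin receptor and grows obese. The rats were diabetic, and all libraries carried the treatment label Medical Bypass, so they formed 1 group of 9 replicates. The labels give no drug, dose, age, sex or time of tissue collection. Whether each replicate was its own animal is not stated, so the spread between them may in part be technical. No lean, untreated or operated group was analysed here, and no treatment effect can be given.

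In mammals the clock is a loop of transcription. The protein of Arntl, also called BMAL1, pairs with CLOCK or its relative NPAS2 and switches on the Per, Cry and Nr1d genes through E-box sequences. PER and CRY proteins then block that pair. The REV-ERB receptors, made by Nr1d1 and Nr1d2, repress Arntl through ROR elements, which the ROR receptors activate. In rodent kidney, as in other peripheral tissues, Arntl and Nr1d1 transcripts are known to run in opposite phase over the day.

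Promoter sequence was taken from RefSeq (build GRCr8) for the 9 members with an entry there, from 250 bases before to 50 bases after each start, 11 windows in all. Cry1 is named only. Both strands were searched for the E-box CACGTG, the variant E-box CACGTT, the D-box TTATGTAA and its variant TTACGTAA, the ROR element TAGGTCA, the shorter receptor site AGGTCA that lies within it, the cAMP element TGACGTCA and TGACG, the shorter cAMP site within it. The 3 stretches shown hold the ROR element in Arntl, the E-box in Nr1d1, and the D-box and variant E-box in Per2, each an example of a kind of element found. The other matches are given by gene. Capitals mark the match, and positions count back from the start site. The Arntl stretch (chr1:176766248-176766327, plus strand) holds the ROR element at -16. The Nr1d1 stretch (chr10:84229605-84229684, minus strand, the second of 2 starts) holds the E-box at -191. The Per2 stretch (chr9:99497039-99497198, minus strand) holds the D-box at -192 and the variant E-box at -62.
Arntl: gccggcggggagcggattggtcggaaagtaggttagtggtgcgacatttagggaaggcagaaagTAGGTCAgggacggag
Nr1d1: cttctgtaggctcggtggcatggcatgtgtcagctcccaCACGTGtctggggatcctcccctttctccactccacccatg
Per2: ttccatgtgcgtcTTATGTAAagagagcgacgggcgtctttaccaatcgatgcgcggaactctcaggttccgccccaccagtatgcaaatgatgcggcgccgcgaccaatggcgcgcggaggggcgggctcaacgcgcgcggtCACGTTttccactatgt

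The ROR element was found in 1 of 9 members, Arntl, against 2.63% of all 33469 promoter windows of this length. The E-box was found in 1 of 9, Nr1d1, against 6.42% of windows, and the D-box in 1 of 9, Per2, against 0.893%. The variant E-box was found in Per2, Cry2 and Nr1d1, at its first start, against 4.83% of windows. The shorter receptor site was found in Arntl and Nr1d2, against 16.2%, and the shorter cAMP site in Per2, Per3 and Nr1d2, against 21.2%. The variant D-box, present in 0.120% of windows, and the full cAMP element, in 1.83%, matched 0 of 9. Clock, Npas2 and Per1 held no match to these letters in these windows. Members are counted here by gene and the shares by window, and Clock and Nr1d1 had 2 windows each. By window, the E-box was found in 1 of 11 and the variant E-box in 3 of 11. A match is a description of sequence and does not show that a factor binds there.

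Levels below are reads scaled by the size factor of their library, with no correction for gene length, and are therefore compared between libraries and not between genes. The libraries held 10757440 to 43071223 reads in genes, and 1 read was worth 0.544 to 1.99 units of level. Genes of the cortical nephron were detected in all 9 libraries, such as the proximal tubule phosphate transporter Slc34a1 at 52253 to 107425, Umod of the thick ascending limb at 40353 to 84097 and the podocyte gene Nphs1 at 1712 to 2697. The adrenal markers summed to 43.2 to 143 and the skeletal muscle markers to 21.8 to 69.5, while the blood markers ran from 2980.5 in replicate 6 to 26557 in replicate 5. In these bulk samples a lower level can come from fewer cells of a type or from less RNA per cell, and these cannot be told apart.

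The clock genes spread widely between libraries. All 10 passed the minimum mean level of 10 that 13647 genes passed. Of the 10, 9 differed at least 2-fold between the highest and lowest library, where 50.0% of all genes tested did. At least a 4-fold difference was found for 6 of 10, namely Arntl, Clock, Npas2, Per3, Nr1d1 and Nr1d2, where 8.69% of all genes tested had one. The median SD of log2(level + 1) over the 9 libraries was 0.87 for the 10 members and 0.33 for all genes tested. The SD of Arntl stood at percentile 99.96 of all genes tested, Nr1d1 at 99.91, Nr1d2 at 99.88, Clock at 99.3 and Per3 at 98.9. Cry2 stood at percentile 3.05, so the same short list held some of the most variable genes in the cortex and one of the steadiest. Counting error is a small part of this: the variance was 10.1 times the counting variance in Cry2 and 751.5 times in Nr1d1. Spread beyond counting error was called for 95.2% of all genes tested (chi-square test of recovered reads, Benjamini-Hochberg adjusted), so that call is common.

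**Figure D1:**
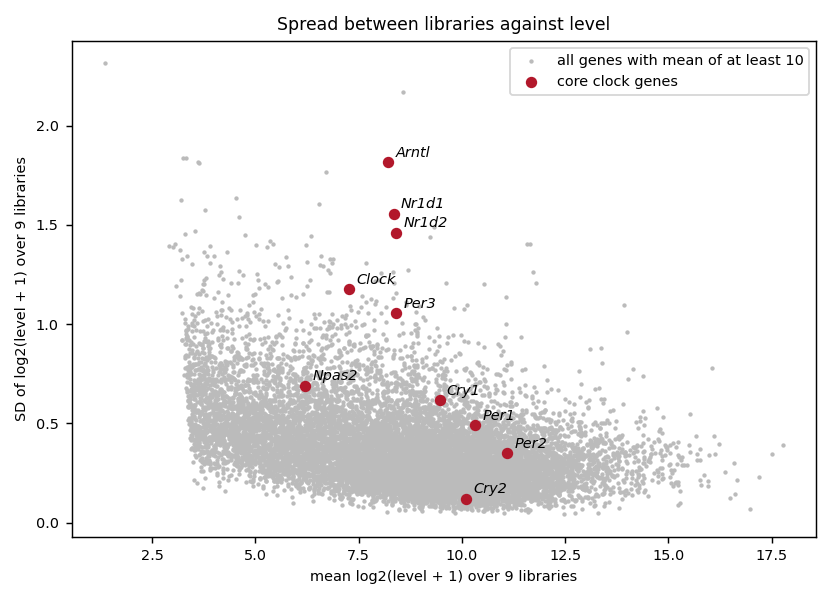
Each grey point is 1 of the 13647 genes tested, with its mean log2(level + 1) over 9 libraries on the horizontal axis and its SD over the same libraries on the vertical axis, and red points are the 10 core clock genes. Arntl, with an SD of 1.81, lies near the top at its level and Cry2, with an SD of 0.12, near the bottom.

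Arntl, the activator that the loop cannot run without, had the widest range of the members. Its level was 67.9 in replicate 1, 101 in replicate 2 and 33.8 in replicate 3. In replicates 4 to 9 it was 620.1, 796, 508, 325, 663 and 1363, in that order. Replicates 1 to 3 all lay below the other 6, and replicate 9 stood highest. The ratio of highest to lowest library was 40.3, and the lowest value rests on 17 reads, with an exact Poisson 95% interval on the level of 19.7 to 54.2. This interval, like the others here, covers counting error only. The highest of these 3 libraries and the lowest of the other 6 were still 101 and 325, with intervals of 84.4 to 119.9 and 291 to 363.

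Npas2, which can take the place of CLOCK as partner of BMAL1, ordered the libraries much as Arntl did. It measured 54.5, 56.7 and 43.8 in replicates 1 to 3, then 74.5, 123, 55.4, 49.9, 83.2 and 194 in replicates 4 to 9. The sets overlapped, since replicates 6 and 7 lay among replicates 1 to 3. Within replicates 4 to 9, however, Npas2 and Arntl put the libraries in the same order, lowest in replicate 7, then 6, 4, 8, 5 and highest in replicate 9. All 15 pairs of these libraries differed in the same direction for both genes, which held for 0.0733% of all genes tested. The counting intervals of Npas2 overlapped between replicates 7 and 6, 6 and 4, and 4 and 8.

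Clock, the usual partner of Arntl, did not share its pattern. It measured 76.1, 260.2 and 241 in replicates 1 to 3, and 140.4, 47.6, 432, 88.9, 80.0 and 471 in replicates 4 to 9, a 9.90-fold range. The 4 highest libraries were replicates 2, 3, 6 and 9, at 241 to 471, and the other 5 lay at 47.6 to 140.4 with no overlap. Clock and Arntl differed in the same direction in 18 of 36 pairs of libraries. The ratio of Arntl reads to Clock reads within a library, which does not depend on the size factor, was lowest at 0.140 in replicate 3 and highest at 16.7 in replicate 5, which is 119-fold. The ratio of Arntl to Npas2 differed 11.9-fold, with 0.773 in replicate 3 and 9.17 in replicate 6, and within replicates 4 to 9 it kept to 6.47 to 9.17. In replicate 3 both ratios rest on 17 Arntl reads.

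**Figure D2:**
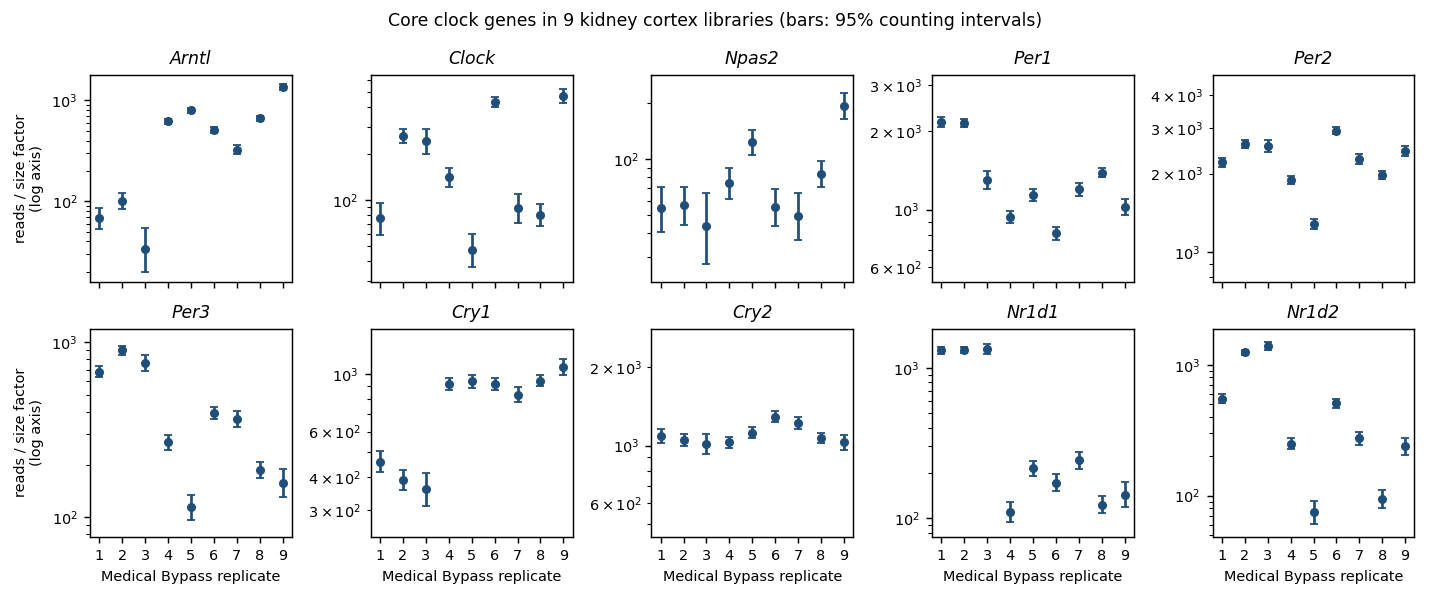
Points are the level of each core clock gene (reads divided by size factor, log axis, scaled separately in each panel) in Medical Bypass replicates 1 to 9, and bars are exact Poisson 95% intervals, which cover counting error only. Arntl and Cry1 are lowest in replicates 1 to 3, and Nr1d1, Nr1d2 and Per3 are highest there. Clock is highest in replicates 2, 3, 6 and 9.

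The split of Clock went with a measure of the libraries, the multiple-alignment share. Reads aligned to more than 1 place made 14.9% to 15.8% of all counted reads in replicates 2, 3, 6 and 9, and 16.8% to 22.1% in the other 5. Of all genes tested, 14.4% were higher in each of those 4 libraries than in any of the other 5, and 8.92% were lower in each. Among the members, Clock and Per2 were higher there and 0 were lower, so 2 of 10 is close to the share over all genes. Clock ran against the multiple-alignment share in 31 of 36 pairs of libraries and Per2 in 32. Arntl ran against it in 13, and the median over all genes tested was 17. The 5 genes most like Clock, by the root mean square difference of centred log2 levels, were Pank3, Gda, Hgf, Cpeb4 and Vps13a at 0.19 to 0.23. They were named after their values were seen, and none belongs to the clock lists used here. Whether the multiple-alignment share has a part in the Clock values was not tested.

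**Figure D3:**
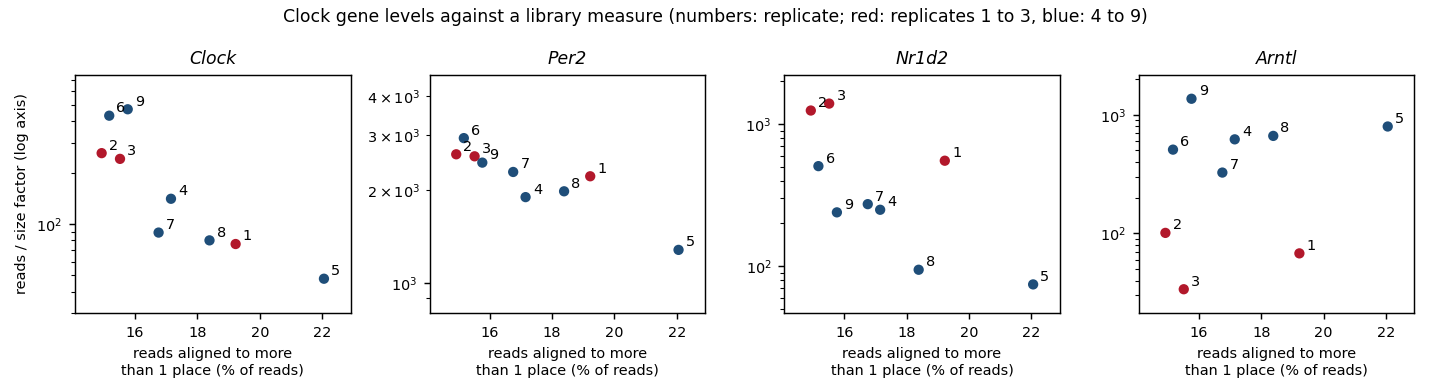
Level of Clock, Per2, Nr1d2 and Arntl (reads divided by size factor, log axis) against the percentage of counted reads aligned to more than 1 place, with 1 point for each of the 9 libraries, labelled by replicate (red for replicates 1 to 3, blue for 4 to 9). Clock and Per2 are highest in the 4 libraries under 16%, and Nr1d2 is higher in each red point than in any blue point.

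Nr1d1, which encodes REV-ERB alpha, stood at 2 widely spaced levels. It measured 1309, 1321 and 1346 in replicates 1 to 3, a 1.03-fold range with overlapping counting intervals. Replicates 4 to 9 stood at 110.1, 214, 172, 243, 123 and 143. The sets did not overlap, and the gap between 243 and 1309 held no library. Part of its gene body, 1061 bases in RefSeq, overlaps that of Thra. The library kit is a stranded one, but whether the counting used it is not given in the sources used here. Thra ran from 688 in replicate 7 to 1343 in replicate 5. Whether reads from Thra are counted in Nr1d1 was not tested.

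Nr1d2, which encodes REV-ERB beta, had the same direction with far less even values. It measured 552, 1244 and 1391 in replicates 1 to 3, and 249.8, 74.7, 506, 274, 94.6 and 239.5 in replicates 4 to 9, an 18.6-fold range overall. Replicate 1 exceeded replicate 6 narrowly, and their counting intervals, 506 to 601 and 470.1 to 544, overlapped. Replicates 1 and 6 differ in multiple-alignment share, so within libraries of a like share the gap had to be wider. Among the 4 libraries with under 16%, replicates 2 and 3 stood at 1244 and 1391 and replicates 6 and 9 at 506 and 239.5. Among the other 5, replicate 1 stood at 552 and the rest at 74.7 to 274. The ratio of Nr1d2 reads to Nr1d1 reads differed 8.44-fold, lowest at 0.348 in replicate 5 and highest at 2.94 in replicate 6, and it was neither constant within replicates 1 to 3 nor within replicates 4 to 9.

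The Per genes, whose proteins carry the repression, differed from one another. Per3 measured 682, 901 and 764 in replicates 1 to 3, and 268, 114, 394, 366, 187 and 158 in replicates 4 to 9, with no overlap. Per1, also an early responder to cAMP and glucocorticoids, measured 2172, 2149.5 and 1299.9 in replicates 1 to 3, and 938, 1139.8, 813, 1198, 1385 and 1022 in replicates 4 to 9, a 2.67-fold range. The sets overlapped only through replicates 3 and 8, and the intervals of those libraries overlapped too. Per2 measured 2209, 2599 and 2559.9 in replicates 1 to 3, inside the span of replicates 4 to 9, which stood at 1893, 1282, 2929, 2280.2, 1976 and 2443. The sets overlapped for Per2, and its lowest library was replicate 5. The ratio of Per3 reads to Per2 reads was 0.299 to 0.347 in replicates 1 to 3 and 0.0645 to 0.161 in replicates 4 to 9, a 5.38-fold range.

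The Cry genes, whose proteins join PER in repression, also differed from each other. Cry1 measured 459.7, 391 and 360.3 in replicates 1 to 3, and 912, 935, 913, 832, 939.8 and 1062 in replicates 4 to 9. Each set spanned 1.28-fold and the sets did not overlap. Cry1 was thus low where the receptors Nr1d1 and Nr1d2 were high and Arntl was low. The ratio of Cry1 reads to Cry2 reads differed 2.90-fold, lowest at 0.356 in replicate 3 and highest at 1.03 in replicate 9. Cry2 stood between 1013 in replicate 3 and 1292 in replicate 6 with an SD of 95.9 around a mean of 1101 (n = 9), and all 8 neighbouring steps in its order had overlapping counting intervals.

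**Figure D4:**
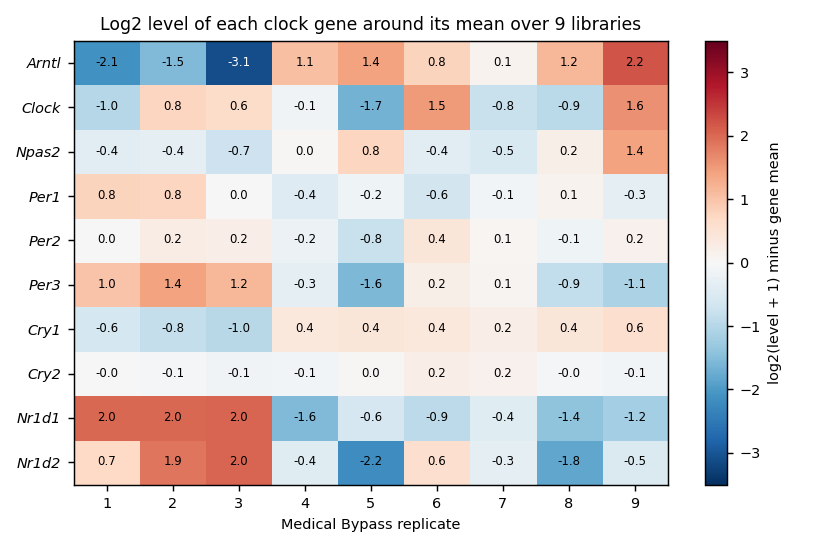
Each cell gives the log2(level + 1) of a core clock gene in a Medical Bypass replicate minus the gene's mean over the 9 libraries (red above the mean, blue below). Arntl and Cry1 are below their means in replicates 1 to 3, where Nr1d1 and Per3 are above theirs, and Cry2, with an SD of 0.12, is close to its mean in all 9.

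Counted over the members, 3 of 10 were higher in replicates 1 to 3 than in any other library (Per3, Nr1d1 and Nr1d2), where 1.20% of all genes tested were. Arntl and Cry1, 2 of 10, were lower there than in any other library, where 1.93% of all genes tested were. In either direction that was 5 of 10 members, where 3.14% of all genes tested were apart. These replicates were recognised from clock genes, so the counts describe the pattern and do not test it. When libraries were instead scaled to an equal read total, Per1 joined the first 3. Libraries were also compared within 2 sets of like multiple-alignment share, a comparison added after the data were seen. Per1, Per3, Nr1d1 and Nr1d2 were higher in replicates 1 to 3 in both sets (4.52% of all genes tested). Arntl and Cry1 were lower in both (4.85%). Per3, Nr1d1, Nr1d2, Arntl and Cry1 were already apart over all libraries and so had to be apart within each set. Only Per1 of these members could have come out otherwise. The set of higher share held only replicate 1 of replicates 1 to 3. Reads in genes numbered 10757440 to 26610593 in replicates 1 to 3 and 16486266 to 43071223 in replicates 4 to 9, so depth overlapped. The multiple-alignment share of replicates 1 to 3, 14.9% to 19.2%, lay within the span of the others, 15.2% to 22.1%, but for replicate 2.

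The order of libraries was then compared gene against gene. Against Arntl, the pairs of libraries in the same direction numbered 33 of 36 for both Npas2 and Cry1, which 0.147% of all genes tested reached. With libraries scaled to an equal read total, both genes fell from 91.7% to 83.3% of pairs. Within replicates 4 to 9, Cry1 went in the same direction in 13 of 15, and 1.50% of all genes tested reached that. Its counting intervals overlapped there between replicates 7 and 4, 4 and 6, 6 and 5, and 5 and 8. Against Arntl, Per3 and Nr1d2 went in the opposite direction in 32 of 36 pairs and Nr1d1 in 29, and 1.30% of all genes tested reached 29. Arntl, Cry1, Per3, Nr1d1 and Nr1d2 were already apart between replicates 1 to 3 and replicates 4 to 9. For these genes each pair of libraries across the 2 sets was thus fixed in direction. Only their pairs within a set could have come out otherwise. Within replicates 4 to 9, Nr1d1 opposed Arntl in 9 of 15 pairs, close to the median of 8 over all genes tested. Per3 and Nr1d2 still opposed Arntl in 13 and 12 of 15 pairs there, and 3.63% of all genes tested reached 12. Per3 and Nr1d2 differed in the same direction in 34 of 36 pairs, and in 14 of 15 within replicates 4 to 9. No share over all genes is given for these counts. Both genes also ran against the multiple-alignment share in 27 of 36 pairs, where the median over all genes tested was 17. Whether that share has a part in their likeness was not tested. These pairs share libraries and are given without a test.

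**Figure D5:**
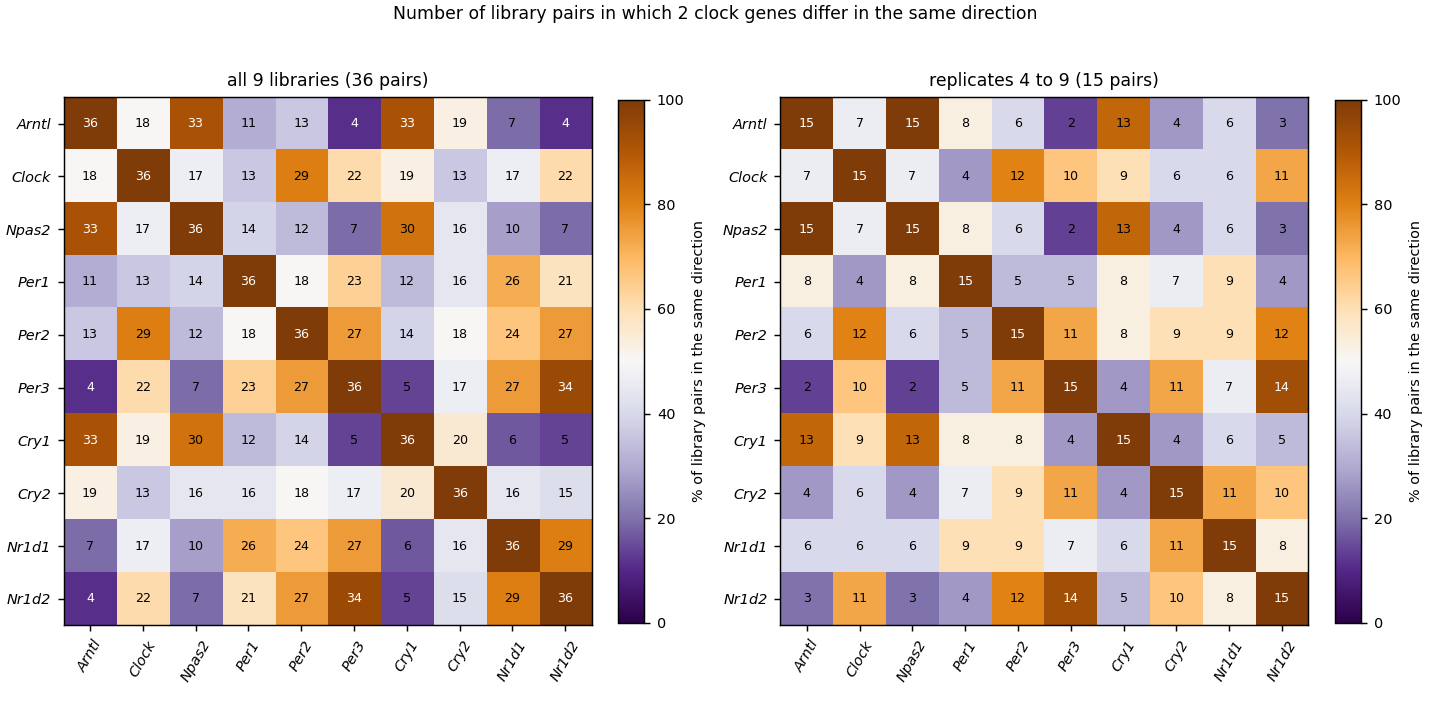
Each cell counts the pairs of libraries in which the 2 clock genes of its row and column differ in the same direction, of 36 pairs over all 9 libraries on the left and of 15 pairs over replicates 4 to 9 on the right (colour: percentage of pairs). Npas2 and Arntl share all 15 pairs on the right, and Nr1d1 and Arntl share 7 of 36 on the left and 6 of 15 on the right.

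How finely the libraries can be ordered differed by gene. In the order from lowest to highest, the counting intervals of neighbours were separate at 5 of 8 steps for Arntl and 4 of 8 for Per3. Clock, Per2 and Nr1d2 had 3 separate steps, and Npas2, Per1 and Cry1 had 2. For Nr1d1 the single separate step was the one between replicates 7 and 1. Over the 9 libraries Arntl averaged 498 ± 428, Nr1d1 553 ± 580 and Nr1d2 514 ± 484 (SD, n = 9). Clock averaged 204 ± 159, Npas2 81.7 ± 48.6, Per3 426 ± 288 and Cry1 756 ± 272 (SD, n = 9). Per1 averaged 1346 ± 494 and Per2 2241 ± 482 (SD, n = 9).

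The ratio of Arntl reads to Nr1d1 reads put both limbs of the loop in 1 value per library. It was 0.0518, 0.0765 and 0.0251 in replicates 1 to 3, and 5.63, 3.71, 2.95, 1.34, 5.39 and 9.52 in replicates 4 to 9. No library lay between 0.0765 and 1.34, and the range over all 9 was 378-fold. The lowest value, in replicate 3, rests on 17 Arntl reads, so counting error limits that figure. The ratio is free of the scaling of the libraries, and because the 2 transcripts differ in length only its differences between libraries can be read.

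Other genes of the clock were taken from a list of 37, of which 31 had a row and 30 passed the minimum mean. At least a 4-fold range was found for 4 of the 30, where 8.69% of all genes tested had one, so the count is near that share. Ciart, a repressor of the BMAL1 pair, ran from 10.5 in replicate 4 to 203 in replicate 3, Nfil3, which represses at D-boxes, from 95.5 in replicate 3 to 1079 in replicate 9, and Dbp, which activates at them, from 491 in replicate 9 to 4988 in replicate 3. Bhlhe41, a repressor at E-boxes, ran from 25.6 in replicate 8 to 107 in replicate 3. Dbp, Ciart and Tef, the last an activator at D-boxes like Dbp, were higher in replicates 1 to 3 than in any other library, 3 of 30, where 1.20% of all genes tested were. Nfil3 was lower there than in any other library. Of 12 modifiers of clock proteins, such as the kinase genes Csnk1d and Csnk1e, 0 parted these sets, and of 9 clock-linked targets, such as Nampt, 0 did. With 3.14% of all genes tested apart, counts of 0 in lists this short say nothing particular about them. Against Arntl, Nfil3 went in the same direction in 35 of 36 pairs of libraries and in 14 of 15 within replicates 4 to 9. Of all genes tested, 0.147% reached 33 of 36 and 1.50% reached 13 of 15. Tef went in the opposite direction in 32 of 36 and in 14 of 15. In that direction 1.30% of all genes tested reached 29 of 36 and 3.63% reached 12 of 15. Nfil3 and Tef, like Arntl, were already apart between replicates 1 to 3 and the rest. Their pairs across those sets were thus fixed in direction. As with Clock, some of these genes were higher in each of replicates 2, 3, 6 and 9 than in any other library: 7 of 30, namely Bhlhe40, Rora, Csnk1a1, Gsk3b, Fbxw11, Nampt and Lpin1, named after their values were seen, where 14.4% of all genes tested were. Arntl2, the paralog of Arntl, had a level of 0 in 8 libraries and 0.684 in replicate 6.

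By the same root mean square difference, the genes most like Arntl were Nfil3 at 0.69, Ddit4l2 at 0.71, Tp73 at 0.76, Slc16a1 at 0.84 and Acot5 at 0.87, over 9 libraries, where the spread of Arntl around its own mean was 1.71. Nearest its mirror image were Nr1d1 at 0.62, Dbp at 0.68, Ciart at 0.78, Per3 at 0.93 and Nr1d2 at 1.02. The spread of Nr1d1 around its own mean was 1.47, and the genes most like it were Dbp at 0.54, Ciart at 0.61, Per3 at 0.84, S100b at 0.87 and Nr1d2 at 0.96. Nearest the mirror image of Nr1d1 were Arntl, Acot5, Ddit4l2, Slc16a1 and Nfil3 at 0.62 to 0.79. Slc16a1, a monocarboxylate transporter, ran from 719.8 to 2331 in replicates 1 to 3 and from 2753 to 9251 in replicates 4 to 9.

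Genes known to respond to signals that also reach Per1 and Per2 were set beside them. Of 8 immediate early genes tested, 0 parted replicates 1 to 3 from the rest, where 3.14% of all genes tested did, and Egr1 stood at 5903 to 12776 in replicates 1 to 3 and 4047 to 15207 in replicates 4 to 9. Of 4 glucocorticoid-responsive genes tested 0 parted the sets, and Sgk1 stood at 9093 to 19882. Of 5 temperature-linked genes tested 0 did, and the chaperone gene Hspa8 stood at 22609 to 46679. At the share over all genes, counts of 0 in lists this short say nothing particular about them. Of 32 tissue markers tested, 2 parted the sets, which is near the 3.14% of all genes tested that did. Slc12a1 of the thick ascending limb was higher in each of replicates 1 to 3, at 19112 to 21695, than in any other library, at 9469 to 18543. Summed with Umod it stood at 64065 to 104113 in replicates 1 to 3 and 55915 to 79006 in replicates 4 to 9, which overlap. The skeletal muscle marker Acta1 was lower there, at 1.99 to 4.11, than elsewhere, at 8.16 to 26.4. The sum of the 3 skeletal muscle markers overlapped between the sets. Whether tissue makeup has a part in the clock gene values was not tested.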

How the data were processed

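RNA from kidney cortex of 9 Medical Bypass replicates was sequenced from stranded mRNA libraries, per the labels' protocols. FastQC 0.11.2, MultiQC 0.9, HTSeq 0.6.1p1, DESeq2 and the build Rnor_5.0 are named per the submitters' processing notes. For the aligner and the DESeq2 version, nothing is given in the sources used here. The values deposited by the authors are a signal: read counts of each gene divided by the library's size factor. Dividing by the smallest step in each library gave reads, and 100% of values above 0 fell within 0.1 of a whole read.

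Of 18423 rows, 3 name no gene and were left out of totals and tests: no-feature reads (22.0% to 31.3% of counted reads), reads aligned to more than 1 place (14.9% to 22.1%) and ambiguous reads (0.0910% to 0.129%). Genes needed a mean level of 10. Ranges, the SD of log2(level + 1), the percentile of that SD, pairs of libraries and read ratios were computed in Python 3.11.15 with scipy 1.17.1. Intervals are exact Poisson at 95%. Spread beyond counting error was tested by chi-square on the recovered reads with Benjamini-Hochberg adjustment at 0.05, after a check on simulated data, and TMM factors came from edgeR 4.0.16 in R 4.3.3. The likeness of profiles was searched among the 11512 genes that carry a symbol and passed the minimum mean.

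The members and lists were chosen with earlier results of these data known. The genes named are all 10 members, the 4 other clock genes of widest range, the gene of highest level, uncorrected for length, of each input list and the 5 nearest to Arntl and to Nr1d1 and to their mirror images. Others named are said to be chosen after their values were seen, as were Tef, Slc16a1 and the tissue markers given. The alternatives were other scalings, pseudocounts and minimum means, and leaving out each replicate. Added after the data were seen were the values within libraries of like multiple-alignment share. The values of 1 other clock gene are not reported here.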

Additional observations from a re-analysis of the deposited data

Results flagged for a closer look

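In each of 40 clock genes the highest and the lowest library were set against the other 8, and a library was singled out where its gap to the nearest, as a share of the gene's whole range, passed Dixon's critical value. Chance alone singles out about 1 in 20 groups, and 4 of 40 genes were singled out, none of them among the 10 core genes. Btrc, which encodes a ubiquitin ligase subunit that acts on PER proteins, had its highest level, 661, in replicate 3. Nono, whose protein binds PER, also had its highest level, 7162, in replicate 3, the library with the fewest reads in genes. Timeless had its lowest level, 71.5, in replicate 2. Por, a partner of cytochrome P450 enzymes, had its lowest level, 6758, in replicate 1.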

How the results depend on the processing

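Under the other scalings and pseudocounts, and with each replicate left out, 8 to 9 core genes had at least a 2-fold range. At least a 4-fold range was found for 5 to 6, and 5 to 6 had replicates 1 to 3 apart from the rest. A pseudocount cannot change which genes are apart, and a minimum mean changes no member's values, so those counts were fixed there. Leaving out a replicate cannot undo the separation of replicates 1 to 3 from the rest, so the count of genes apart could not fall there. The shares over all genes tested moved more across the alternatives, minimum means included. At least a 2-fold range was found for 40.4% to 59.6% of them, and at least a 4-fold range for 4.4% to 16.8%. From 2.89% with no minimum mean to 10.7% without replicate 1 had replicates 1 to 3 apart. With a pseudocount of 1, the Arntl ratio was 39.1, against 19.8 without replicate 3 and 22.9 without replicate 9. The Clock ratio was 9.72, against 6.13 without replicate 5, and the Npas2 ratio 4.35, against 2.77 without replicate 9. Without replicate 5, Per2 had a ratio of 1.55 in place of 2.28. Across these alternatives, 83.3% to 96.4% of library pairs went in the same direction as Arntl for Npas2, and 83.3% to 92.9% for Cry1. Within the libraries under and over a share of 16%, chosen after the data were seen, the Clock ratio was 1.95 and 2.91. Requiring a mean of 100 leaves out Npas2, which the counts above still include. No paired analysis was possible because the labels give 1 group. The lowest Arntl value rests on 17 reads, so depth limits its ratio.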
